A study of Mus musculus with 16 samples.

Results

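The 7 genes described here, Chat, Slc5a7, Slc18a3, Chodl, Mnx1, Isl2 and Ache, are known from cholinergic motor neurons, and they were picked by symbol from a table of 53465 genes. The choice was made with earlier results of these data known. The table holds ribosome footprints and poly(A) mRNA of mouse spinal cord and dorsal root ganglia (DRG) after spared nerve injury (SNI) or sham surgery. The animals were female C57BL/6J mice, 8 weeks old at surgery, with no transgene or drug named in the labels, and the tissue was taken 30 days later. SNI was bilateral: of the sciatic nerve, the common peroneal and tibial branches were cut and the sural branch was spared, and in sham mice the branches were left intact. The cord tissue was the dorsal section at the lumbar level, and the DRG were those of L3 to L5. The 16 libraries formed 8 groups of 2, SNI and sham for each tissue and each of the assays, and each of the 8 lysates was a pool of tissue from 10 mice split into a footprint and an mRNA library. All values stand for n = 2 pools per group. Errors and p-values thus take in counting noise and the spread between pools, and not that between mice.

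Motor neurons of the spinal cord release acetylcholine onto muscle. Chat makes acetylcholine from choline, Slc18a3 (the vesicular acetylcholine transporter) loads it into synaptic vesicles, Ache (acetylcholinesterase) breaks it down in the cleft, and Slc5a7 (the high-affinity choline transporter) takes the freed choline back into the terminal. Mnx1 and Isl2 are homeodomain transcription factors of motor neuron development, and Chodl encodes a C-type lectin-like membrane protein known as a marker of fast motor neurons. The cell bodies of somatic motor neurons lie in the ventral horn, outside a dorsal dissection, while cholinergic interneurons lie around the central canal and in the deep dorsal horn. Isl2 is also a transcription factor of sensory neurons, and Ache is made by many neurons that do not release acetylcholine.

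Chat and Slc18a3 form a single locus. On GRCm38, Chat spans chr14:32408203-32465989 on the minus strand, and Slc18a3 lies whole within it on the same strand, at chr14:32462438-32464850. In an annotated Chat transcript of 16 exons, Slc18a3 sits in the intron between exons 1 and 2, 956 bases downstream of exon 1, and both genes share 0 exonic bases. Slc5a7 spans chr17:54273590-54299034 on the minus strand, Chodl chr16:78930948-78951733 on the plus strand, Mnx1 chr5:29473034-29478470 on the minus strand, Isl2 chr9:55538672-55546180 on the plus strand and Ache chr5:137287519-137294466 on the plus strand. Whether the counting used strand is not given in the sources used here, and antisense genes overlap Chat, Isl2 and Ache, but over all 16 libraries these held only 72, 148 and 44 reads, against 1527, 33432 and 54609 for Chat, Isl2 and Ache.

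The 250 bases before the RefSeq start (GRCm38.p6) are given here 5′ to 3′ on the gene's strand for the 4 members that fell in both cord assays, since these carry the cord result. The search was for TAAT, the core bound by many homeodomain factors, on either strand, and each match is in capitals, as TAAT or as its reverse complement ATTA. Chodl (chr16:78930698-78930947) held 2 matches, Slc18a3 (chr14:32464851-32465100) held 1, and Slc5a7 (chr17:54299035-54299284) and Chat (chr14:32465910-32466159) held 0.
Chodl: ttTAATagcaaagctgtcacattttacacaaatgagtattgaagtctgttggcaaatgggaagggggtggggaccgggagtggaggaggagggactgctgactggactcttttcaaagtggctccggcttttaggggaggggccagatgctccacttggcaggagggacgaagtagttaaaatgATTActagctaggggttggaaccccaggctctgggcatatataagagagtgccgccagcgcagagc
Slc5a7: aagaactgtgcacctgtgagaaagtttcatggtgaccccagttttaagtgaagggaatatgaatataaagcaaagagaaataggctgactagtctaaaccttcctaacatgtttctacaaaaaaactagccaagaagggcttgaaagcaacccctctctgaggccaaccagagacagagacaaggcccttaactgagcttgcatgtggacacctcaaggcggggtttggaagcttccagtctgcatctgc
Slc18a3: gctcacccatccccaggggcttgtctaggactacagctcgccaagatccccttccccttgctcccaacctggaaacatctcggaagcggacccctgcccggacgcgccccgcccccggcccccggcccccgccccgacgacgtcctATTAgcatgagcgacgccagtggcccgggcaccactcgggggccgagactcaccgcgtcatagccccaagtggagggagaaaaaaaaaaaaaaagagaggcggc
Chat: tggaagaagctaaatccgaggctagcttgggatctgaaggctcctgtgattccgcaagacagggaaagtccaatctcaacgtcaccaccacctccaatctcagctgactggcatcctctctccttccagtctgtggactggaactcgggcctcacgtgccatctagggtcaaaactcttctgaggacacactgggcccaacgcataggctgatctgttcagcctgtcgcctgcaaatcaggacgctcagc
TAAT occurred in 54.9% of 32851 RefSeq promoters of this length, so a match of 4 letters is common and marks no site. TGACGTCA, the full cyclic AMP response element, occurred in 1.55% of them, and of the 7 members the Isl2 promoter alone held it, with 1 match, while Mnx1 had 1 TAAT match and Ache held neither motif.

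Reads counted in genes ranged from 18176471 to 28553113 in the mRNA libraries and from 6898056 to 21613483 in the footprint libraries, so footprint values of the lower members rest on fewer reads. The tissues matched their labels. The summed level of 6 DRG sensory neuron genes was 5.43 to 11.9 CPM (reads per 1000000 reads in genes, after scaling) in cord mRNA and 1697 to 1784 CPM in DRG mRNA, and the summed level of 6 oligodendrocyte genes was 2269 to 2497 CPM in cord mRNA and 6.21 to 32.6 CPM in DRG mRNA. The common biological coefficient of variation that edgeR estimated was 0.0430 for DRG footprints, 0.0171 for cord mRNA, 0.0160 for cord footprints and 0.00988 for DRG mRNA. For cord mRNA, cord footprints and DRG mRNA this is near the sampling noise of the counts. An alternative with this coefficient fixed at 0.1 is therefore named wherever it ends a call on a member.

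Levels of the members differed widely within the cord. Per kilobase of exon, so that genes can be compared, Ache stood highest in cord mRNA with 48.3 CPM per kb after SNI and 50.0 CPM per kb in sham. It was followed by Slc18a3 (10.2 in SNI, 13.9 in sham), Slc5a7 (4.01, 6.52), Chodl (2.31, 4.91), Chat (1.54, 1.97), Isl2 (0.466, 0.778) and Mnx1 (0.272, 0.561), each given as mean CPM per kb in SNI and then in sham. In sham cord, each neighbouring pair in this order differed by more than the sum of the SDs of its members, and the nearest pair was Isl2 (0.778 ± 0.062, SD, n = 2) and Mnx1 (0.561 ± 0.062). After SNI, Isl2 and Mnx1 did not differ beyond their spread, since the SD of Isl2 was 0.386. The order was the same in SNI and sham cord.

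In the mRNA of the spinal cord, Slc5a7 (choline uptake), Slc18a3 (vesicular loading) and Chat (synthesis) were called lower after SNI in edgeR, together with Chodl. The Chat call was lost with DESeq2, and those of Chat and Slc18a3 with the fixed coefficient of variation of 0.1. Of the 6 members with an average of at least 32 reads over the 4 cord mRNA libraries, 4 fell and 0 rose, against 1.96% of the 14723 genes tested called lower and 2.09% called higher, by edgeR at an adjusted p under 0.05. The median log2 fold change, SNI over sham, was -0.57 over these 6 members and 0.0015 over all genes tested. Since the members were chosen with earlier results of these data known, their count beside these shares is not an independent test. Because the cord was measured in bulk, fewer cells that express these genes and less of their RNA per cell cannot be told apart, and the reads were not assigned to motor neurons or to cholinergic interneurons.

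Chodl changed most. It had 225 and 179 mRNA reads after SNI, or 9.55 and 8.06 CPM, against 501 and 427 reads in sham, or 18.4 and 19.1 CPM. Both SNI pools lay below both sham pools. The share of all genes that separate in this way was not counted, here or for the members below. Chodl fell by 52.8%, a log2 fold change of -1.08 (SE 0.09), with an adjusted p of 2.05e-15 in edgeR, and ranked 2 among all genes tested by the size of its decrease. The call held under DESeq2, under the fixed coefficient of variation of 0.1 and without each lysate in turn, with log2 fold changes from -1.22 to -0.97 in the last.

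Slc5a7, which returns choline to the terminal, had 507 and 445 mRNA reads after SNI, against 967 and 715 in sham. These correspond to 21.5 and 20.04 CPM after SNI, against 35.6 and 32.0 CPM in sham, with no overlap. Slc5a7 fell by 38.6%, with a log2 fold change of -0.70 (SE 0.06, adjusted p of 2.56e-13 in edgeR), and it also held under DESeq2, the fixed coefficient and each left-out lysate.

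Slc18a3, the vesicular transporter, had 23.4 and 26.1 CPM after SNI, from 551 and 579 reads, against 32.1 and 34.8 CPM in sham, from 873 and 778 reads. The decrease was smaller than that of Slc5a7 in size, and the groups again did not overlap. Slc18a3 fell by 25.9%, with a log2 fold change of -0.43 (SE 0.06, adjusted p of 6.10e-07 in edgeR). This call held with DESeq2 (adjusted p of 0.00491) and was lost with the fixed coefficient of variation of 0.1.

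Chat, the synthetic enzyme, had the smallest decrease of the 4 members called lower, and the least firm one. It had 7.47 and 6.98 CPM after SNI, from 176 and 155 reads, against 9.38 and 9.12 CPM in sham, from 255 and 204 reads. Its log2 fold change was -0.36 (SE 0.11), and the adjusted p was 0.0404 in edgeR. Although both SNI pools lay below both sham pools, the call was lost with DESeq2 (adjusted p of 0.968), with the fixed coefficient, and in edgeR without sham pool 1 (0.239), SNI pool 1 (0.117) or SNI pool 2 (0.362). The log2 fold change stayed between -0.41 and -0.31 without each lysate. Chat and Slc18a3 share 0 exonic bases, so no exonic read was counted for both.

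Ache did not pass the test in cord mRNA. It had 223 and 223 CPM after SNI, against 229.6 and 233 CPM in sham, from 4952 to 6243 reads per library. Its log2 fold change was -0.05 (SE 0.03, adjusted p of 0.362 in edgeR), although Ache had more reads than any other member in the cord. Whether it differed from the genes of synthesis and transport was not tested.

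**Figure D1:**
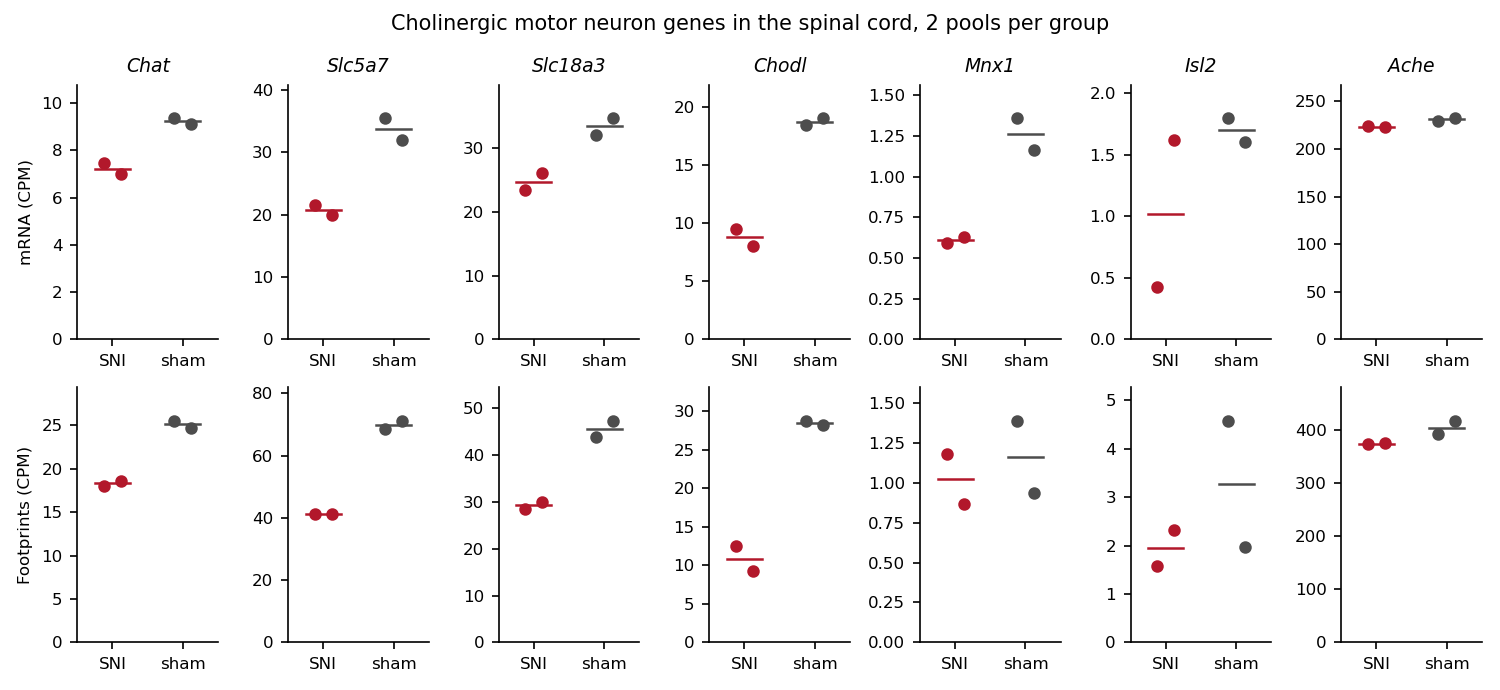
Normalised level in CPM (vertical axes, from 0, each panel with its own scale) of the 7 genes in spinal cord mRNA (top) and footprints (bottom), where points are single pools and lines are group means, SNI left and sham right. Both SNI pools lie below both sham pools in both assays for Chat, Slc5a7, Slc18a3, Chodl and Ache, while Isl2 and Mnx1 rest on at most 49 reads per library. The share of all genes that separate in this way was not counted, and Ache mRNA did not pass the test.

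The transcription factors were near the limit of detection in the cord. Mnx1 had 14 and 14 mRNA reads after SNI, against 37 and 26 in sham, or 0.594 and 0.630 CPM against 1.36 and 1.16 CPM. With 91 reads in all it was under the minimum, and in a fit with no minimum it had a log2 fold change of -1.05 (SE 0.30) and an adjusted p of 0.0467 in edgeR. The ratio of its reads, SNI over sham, was 0.483 with an exact 95% counting interval of 0.298 to 0.765, which covers counting error only.

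Isl2 varied more between the SNI pools than between the groups. It had 10 and 36 mRNA reads after SNI, against 49 and 36 in sham, or 0.425 and 1.62 CPM against 1.80 and 1.61 CPM. SNI pool 2 lay at the level of the sham pools and SNI pool 1 far below them. The log2 fold change was -0.77 (SE 0.29, adjusted p of 0.139 in edgeR). Without SNI pool 2 it was -2.00 with an adjusted p of 0.000297, and without SNI pool 1 it was -0.08 with an adjusted p of 0.940. The summed level of the 6 DRG sensory neuron genes was likewise 5.43 CPM in SNI pool 1 and 11.9 CPM in SNI pool 2, against 6.18 and 7.02 CPM in sham cord mRNA, and the part of DRG or root tissue in the cord value of Isl2 was not tested.

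Ribosome footprints of the cord gave the same order of decrease, from Chodl to Ache. All 5 members with an average of at least 32 footprint reads fell, and 0 rose, against 1.03% of 12018 genes called lower and 1.21% called higher in edgeR. Their median log2 fold change was -0.65, against -0.0009 over all genes tested. As in mRNA, the members were chosen with earlier results known, so this count is not an independent test. The footprint and mRNA libraries come from the same lysates, so both assays share the same pools of mice.

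Chodl again changed most, with 12.4 and 9.28 CPM of footprints after SNI, from 95 and 64 reads, against 28.7 and 28.2 CPM in sham, from 207 and 302 reads. Chodl footprints fell by 61.5%, with a log2 fold change of -1.38 (SE 0.12, adjusted p of 5.18e-08 in edgeR), and ranked 2 by the size of the decrease among all genes tested. Slc5a7 had 41.4 and 41.3 CPM after SNI, against 68.6 and 71.2 CPM in sham. Slc5a7 footprints fell by 41.0% (log2 fold change of -0.76, SE 0.07, adjusted p of 2.44e-08 in edgeR).

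Slc18a3 footprints were 28.5 and 30.0 CPM after SNI, against 43.9 and 47.4 CPM in sham. They fell by 36.4% (log2 fold change of -0.65, SE 0.08, adjusted p of 9.53e-06 in edgeR). For Chodl, Slc5a7 and Slc18a3 the footprint call held with DESeq2, with the fixed coefficient of variation and without each lysate in turn.

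Chat and Ache footprints passed the test by less. Chat had 18.1 and 18.6 CPM after SNI, against 25.5 and 24.7 CPM in sham, a log2 fold change of -0.45 (SE 0.11) with an adjusted p of 0.0170 in edgeR. That call was lost with DESeq2 (adjusted p of 0.945), with the fixed coefficient, and without sham pool 1 (0.0907), sham pool 2 (0.0969) or SNI pool 1 (0.112). Ache had 373 and 376 CPM after SNI, against 392 and 418 CPM in sham, and fell by 7.88% (log2 fold change of -0.12, SE 0.03, adjusted p of 0.0367 in edgeR). The Ache call was lost with DESeq2, with library sizes alone (adjusted p of 0.0540), with the fixed coefficient, and without sham pool 2 (0.501) or SNI pool 1 (0.0821).

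Footprints of the transcription factors were under the minimum. Isl2 had 12 and 16 reads after SNI, against 33 and 21 in sham. The ratio of its reads was 0.639, with an exact 95% counting interval of 0.390 to 1.03, and in the fit with no minimum its log2 fold change was -0.65 (SE 0.31, adjusted p of 0.596 in edgeR). Mnx1 had 9 and 6 footprint reads after SNI, against 10 and 10 in sham, and its ratio was 0.924 with an interval of 0.440 to 1.90, so a lower footprint level of Mnx1 was not detectable at this depth (log2 fold change of -0.12, adjusted p of 0.968 in edgeR with no minimum).

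**Figure D2:**
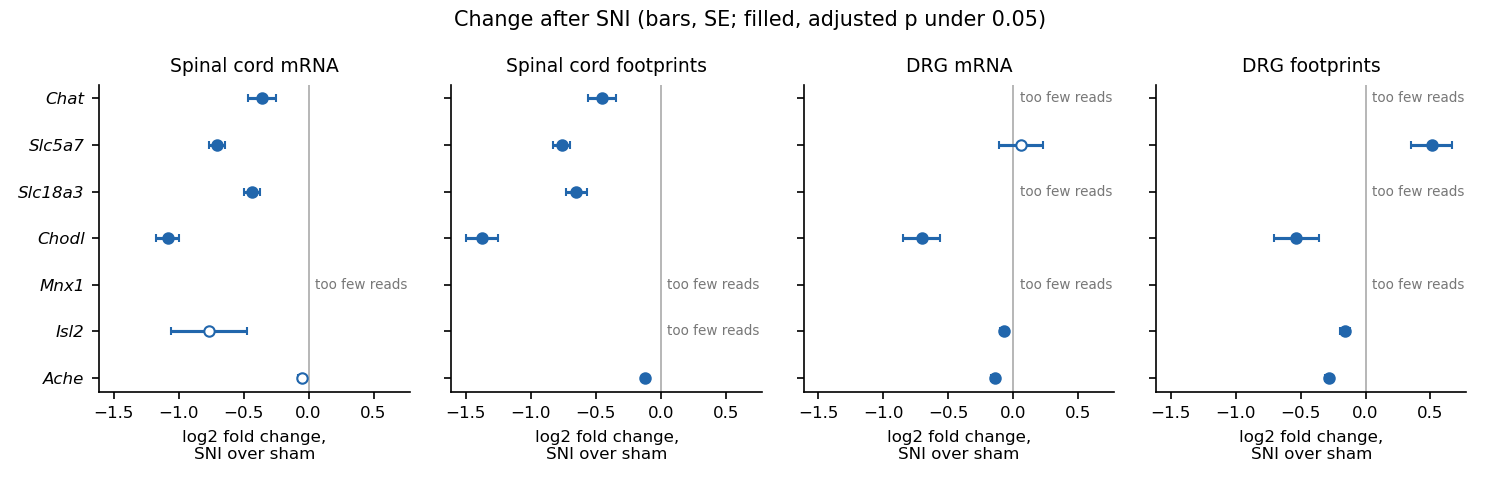
Log2 fold change, SNI over sham (horizontal axes, bars are SE), of the 7 genes in each tissue and assay, from edgeR; filled points have an adjusted p under 0.05, and genes under an average of 32 reads over the 4 libraries have no point. Chodl lies at -1.08 in cord mRNA and -1.38 in cord footprints, and Slc5a7 is on the left of 0 in the cord and at 0.51 in DRG footprints.

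Translational efficiency (TE), the footprint level over the mRNA level of a lysate, was then compared, to ask whether footprints moved beyond the mRNA. Of the 5 members with enough reads in both assays, 0 were called in the cord, against 0.253% of 11865 genes called in either direction by the interaction of surgery and assay in edgeR. Unadjusted, 0 of the 5 had a p under 0.05, against 838 of the 11865 genes, and DESeq2 called 13 genes in all and none of these 5. Isl2 and Mnx1, under the minimum, were not called in the fit without it (log2 differences of 0.06, SE 0.43, and 0.89, SE 0.66).

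Chodl had log2 TE values of 0.38 and 0.21 after SNI, against 0.64 and 0.57 in sham. Slc18a3 had 0.29 and 0.20 after SNI, against 0.45 and 0.45 in sham. In both, the SNI lysates lay below the sham lysates without overlap, by -0.30 (SE 0.16) for Chodl and -0.20 (SE 0.10) for Slc18a3 on the log2 scale. The adjusted p was 0.750 for Chodl and 0.723 for Slc18a3 in edgeR, with unadjusted p-values of 0.0660 and 0.0560.

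Of the other members, the groups of Slc5a7 overlapped and those of Chat and Ache did not. The share of all genes whose lysates separate in this way was not counted. Unadjusted p-values in edgeR were 0.510 for Chat and 0.124 for Ache. Chat had log2 TE values of 1.27 and 1.41 after SNI, against 1.45 and 1.44 in sham, and its log2 difference was -0.10 (SE 0.16). Slc5a7 had 0.94 and 1.04 after SNI, against 0.95 and 1.16 in sham (difference -0.07, SE 0.10). Ache had 0.74 and 0.75 after SNI, against 0.77 and 0.85 in sham (difference -0.07, SE 0.04). With SEs of 0.04 to 0.16, differences of this size in TE were not detectable here. All 5 members had TE above the cord median of all genes in every lysate, which lay between -0.17 and -0.16, but TE is not compared between genes because footprints cover the coding sequence and mRNA reads the whole transcript.

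**Figure D3:**
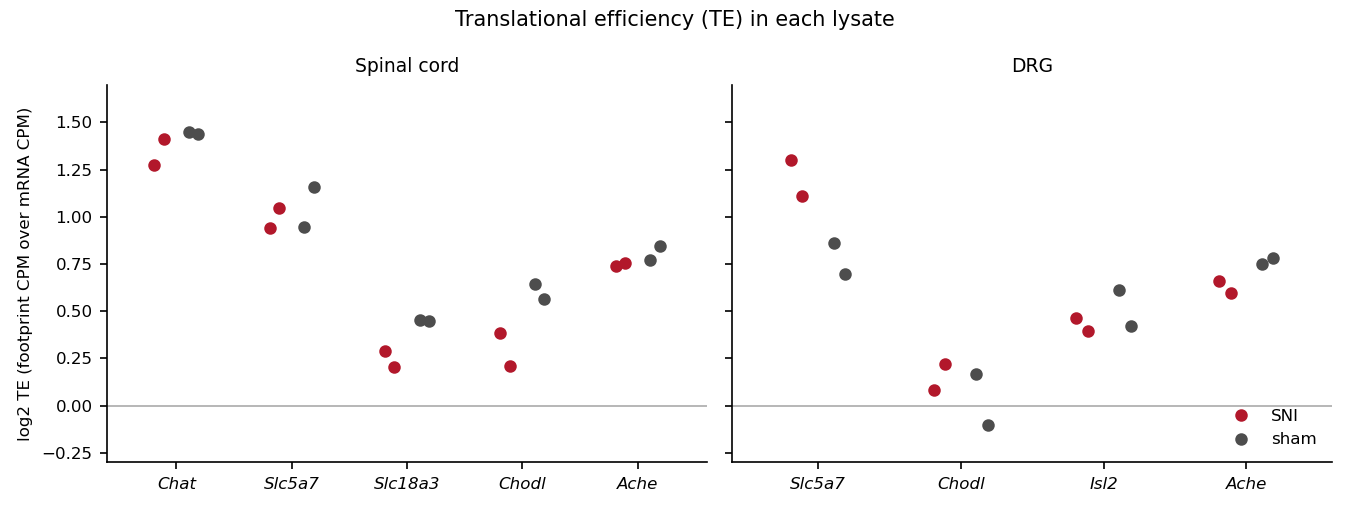
Log2 TE, footprint CPM over mRNA CPM of the same lysate (vertical axis), for the members with an average of at least 32 reads in each assay, in spinal cord (left) and DRG (right); points are single lysates, SNI left of sham for each gene. In the cord the SNI lysates of Chodl (0.38 and 0.21) and Slc18a3 (0.29 and 0.20) lie below their sham lysates, and in the DRG those of Slc5a7 (1.30 and 1.11) lie above. None of these differences in TE was called.

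Genes around the members in acetylcholine signalling mostly did not pass the test in cord mRNA. Of 9 other acetylcholine handling genes, all tested, 1 fell and 0 rose, and their log2 fold changes had a median of -0.03. The gene that fell was Slc10a4, a vesicular transporter of cholinergic and monoaminergic terminals, with 5.60 and 4.59 CPM after SNI, against 6.73 and 7.46 CPM in sham (log2 fold change of -0.47, SE 0.13, adjusted p of 0.0215 in edgeR). Of 21 acetylcholine receptor subunits, 8 had enough reads, and 1 fell and 0 rose, with a median of -0.01. This was Chrm2, the M2 muscarinic receptor found as an autoreceptor on cholinergic neurons, which had 76.0 and 80.3 CPM after SNI, against 86.9 and 84.9 CPM in sham (log2 fold change of -0.14, SE 0.04, adjusted p of 0.0222 in edgeR).

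Of 12 other genes known from motor neurons, 11 were tested in cord mRNA and 0 were called in either direction, with 8 below 0 and a median of -0.07. The lowest were Vipr2, at -0.68 (SE 0.22, adjusted p of 0.0587 in edgeR), and the transcription factor Lhx4, at -0.32 (SE 0.13, adjusted p of 0.169 in edgeR). Aldh1a2 was at -0.14 (SE 0.07, adjusted p of 0.321 in edgeR), and Esrrg, an orphan nuclear receptor, was at -0.12 (SE 0.04, adjusted p of 0.0760 in edgeR). Mmp9 was at -0.006 (SE 0.09), and the highest was Calca, at 0.12 (SE 0.06). Lhx3, under the minimum, had 32 and 30 reads after SNI, against 22 and 23 in sham. Whether the list differed from the members was not tested. Sv2a, a general synaptic vesicle protein with the most reads of the list, had 592 and 585 CPM after SNI, against 579 and 581 CPM in sham. Most of this list (Calca and Prph, for example) is also made by sensory neurons or other cord neurons, and its summed level, of which Sv2a is the greater part, was 900 to 901 CPM after SNI and 899 to 901 CPM in sham. Of 4 genes of other spinal cholinergic neurons, 3 were tested and 0 were called, with a median of -0.03. In cord footprints, 0 of 8 other acetylcholine handling genes and 0 of 8 other motor neuron genes tested were called, while Chrm2 was the 1 of 8 receptors that fell (log2 fold change of -0.19, adjusted p of 0.0257 in edgeR).

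Of 10 ventral interneuron genes, 6 were tested and 0 were called in cord mRNA (median log2 fold change 0.08). Their summed level was 35.5 to 36.0 CPM after SNI, against 33.8 to 34.9 CPM in sham. Of those under the minimum, Evx1 had 18 and 19 reads after SNI, against 26 and 30 in sham, and Gata3 29 and 25, against 31 and 31. Sox14 had 28 and 15 reads after SNI, against 24 and 14 in sham, and Sim1 17 and 8, against 11 and 14. The part of the dissection in the members' values was not tested. Among 16 dorsal interneuron genes 1 rose and 1 fell (median 0.03), and among 8 general neuron genes of the cord 0 rose and 1 fell (median -0.05).

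Marker lists of non-neuronal and peripheral tissue moved as follows in cord mRNA. Of 18 skeletal muscle genes, 13 were tested and 1 fell, Myh4, with 2.00 and 1.62 CPM after SNI, against 4.23 and 4.34 CPM in sham (median of the list -0.18), and the summed level was 43.4 to 44.3 CPM after SNI, against 49.2 to 51.0 CPM in sham. The muscle sum was thus lower after SNI, as were the members, and its part in the result was not tested. In cord footprints 2 of 7 muscle genes tested fell, and the sum was 72.3 to 80.1 CPM after SNI, against 102 to 110 CPM in sham. None of the 18 was at 0 in both libraries of a cord group. Of 6 DRG sensory neuron genes, 3 were tested and 0 were called (median 0.24). Of 6 oligodendrocyte genes 1 rose (median 0.06), of 5 astrocyte genes 1 rose and 2 fell (median -0.05), and of 6 microglia genes 3 rose and 0 fell (median 0.31). Axon injury genes went the other way from the members, with 7 of 11 tested higher and 0 lower (median 0.23), led by Sprr1a, a gene of axon regrowth, at 28.7 and 29.4 CPM after SNI, against 0.184 and 0.179 CPM in sham.

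**Figure D4:**
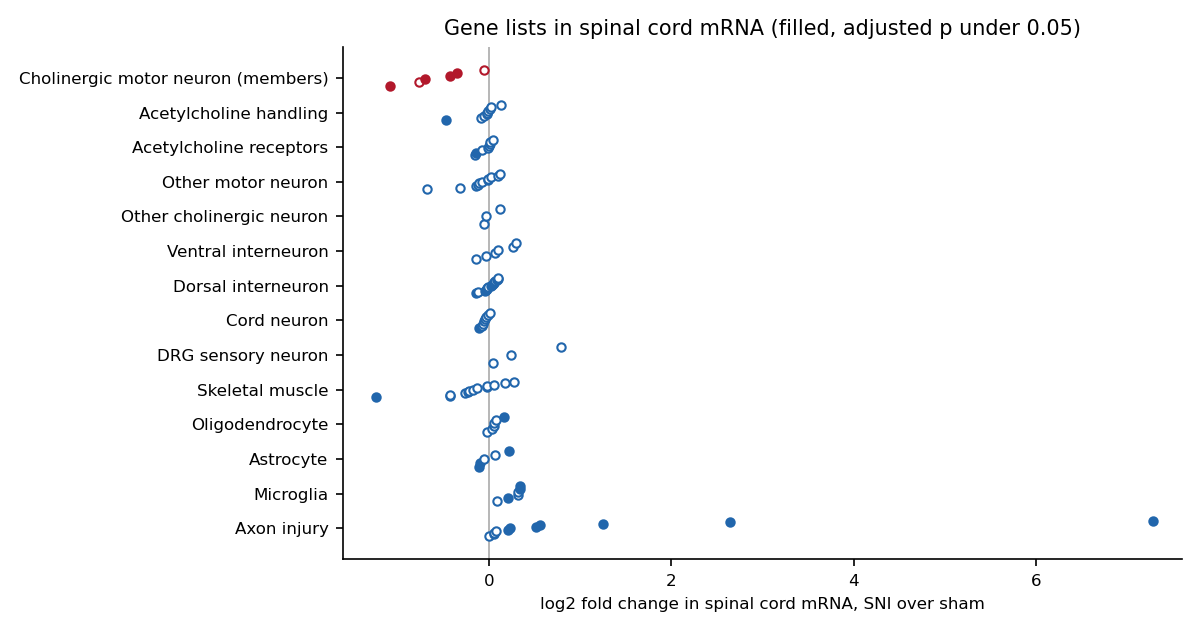
Log2 fold change in spinal cord mRNA, SNI over sham (horizontal axis), for each tested gene of 14 lists; points are genes and filled points have an adjusted p under 0.05 in edgeR. Of the members, 4 are filled and all 6 lie left of 0, the 11 other motor neuron genes and 6 ventral interneuron genes are all open, and Sprr1a lies at 7.28.

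Chat and Chodl were also compared with all other genes by pattern. Over the 8 mRNA libraries, the gene nearest to Chat among 16716 genes, by the root mean square difference of centred log2 CPM, was Uts2 (0.143), and 1110015O18Rik, Dbx2 and Slc6a9 were also among the nearest. Uts2 encodes urotensin 2, a peptide known from spinal motor neurons. It had 85 and 82 cord mRNA reads after SNI, against 138 and 119 in sham, and 3 and 2 reads after SNI against 2 and 1 in sham in the DRG. In the cord, Uts2 fell with a log2 fold change of -0.51 and an adjusted p of 0.0323 in edgeR. The genes nearest to Chodl were Vegfc (0.292), Vipr2, Rtl4, B130034C11Rik and Gm38124, all with at most 102 reads in each mRNA library. Vipr2, a receptor known from motor neurons, had 30 and 49 cord mRNA reads after SNI, against 67 and 70 in sham, and did not pass the test (log2 fold change of -0.68, adjusted p of 0.0587 in edgeR). The 8 libraries include both tissues, so the likeness takes in the contrast of cord and DRG as well as that of SNI and sham. The change of Uts2 and Vipr2 in the cord was thus part of their selection and was not an independent test.

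Members split between the tissues without injury. In sham mRNA, 5 of the 6 members tested were higher in spinal cord than in DRG and 1 was lower, against 42.3% of 14706 genes called higher and 41.4% called lower in edgeR, so a call in either direction is common in this contrast. Slc18a3 had 32.1 and 34.8 CPM in sham cord, against 0.401 and 0.167 CPM, from 8 and 3 reads, in sham DRG. Its fold was 108, the ratio of its reads had an exact 95% counting interval of 64.6 to 233, and without 1 library the log2 fold change ran from 6.29 (without DRG sham pool 2) to 7.53 (without DRG sham pool 1). Chat had 9.38 and 9.12 CPM in cord, against 0.201 and 0.167 CPM, from 4 and 3 reads, in DRG, a fold of 46.6 with a counting interval of 24.4 to 127. Slc5a7 was 10.1-fold higher in cord, Chodl 2.93-fold and Ache 1.91-fold.

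Isl2 went the other way. It had 1.80 and 1.61 CPM in sham cord, against 197 and 205 CPM in sham DRG, where it stood highest of all members with 91.6 CPM per kb. In these tissues Isl2 is therefore mostly a DRG transcript, and the name of cholinergic motor neuron gene does not describe most of its reads. Mnx1 had 63 reads over both sham cord mRNA libraries, against 2 reads in sham DRG, a ratio of 24.3 with an exact 95% counting interval of 6.46 to 205.

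**Figure D5:**
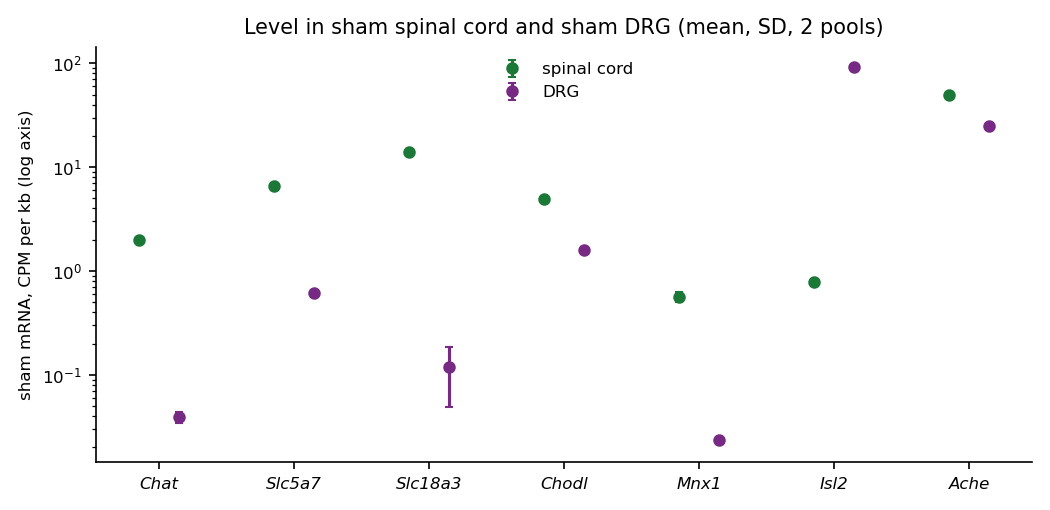
Level in sham mRNA in CPM per kb of exon (vertical axis, logarithmic), spinal cord left and DRG right for each gene; points are means and bars SD of 2 pools. Slc18a3 lies at 13.9 in cord and 0.118 in DRG, while Isl2 lies at 0.778 in cord and 91.6 in DRG.

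In the DRG, Chat, Slc18a3 and Mnx1 were hardly present. Chat had 7 and 4 mRNA reads after SNI, against 4 and 3 in sham, and 1 and 2 footprint reads after SNI against 1 and 1 in sham. Slc18a3 had 15 and 9 mRNA reads after SNI, against 8 and 3 in sham, and 1 footprint read in each DRG library. Mnx1 had at most 3 reads in any DRG library, and 0 footprint reads of 33978050 after SNI, which allows a level of up to 0.0883 CPM. In the fits with no minimum of reads, none of the 3 was called in DRG mRNA (adjusted p of 0.936 for Chat, 0.572 for Slc18a3 and 0.908 for Mnx1 in edgeR) or in DRG footprints (0.978, 0.954 and 0.811 in the same order).

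The remaining members changed little or fell in DRG mRNA. Of 4 members tested, 3 fell and 0 rose, against 17.0% of 14494 genes called lower in edgeR, so a lower call is common in this tissue. Chodl had 3.74 and 3.77 CPM after SNI, against 5.92 and 6.35 CPM in sham, and fell by 38.6% (log2 fold change of -0.70, SE 0.14, adjusted p of 0.000165 in edgeR). It kept its call with DESeq2, with the fixed coefficient of variation and without each lysate.

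Ache in the DRG had 105 and 105 CPM after SNI, against 116 and 116 CPM in sham. It fell by 9.40% (log2 fold change of -0.14, SE 0.03, adjusted p of 0.000169 in edgeR), and the call was lost only with the fixed coefficient of variation among the alternatives run. Isl2 had 192 and 190.3 CPM after SNI, against 197 and 205 CPM in sham. Its log2 fold change was -0.07 (SE 0.03, adjusted p of 0.0283 in edgeR), and this call was lost under DESeq2, the fixed coefficient, no minimum of reads, library sizes alone, both tissues in 1 fit, and without sham pool 2 (adjusted p of 0.369) or SNI pool 2 (0.0623). Slc5a7 had 3.25 and 3.42 CPM after SNI, against 3.21 and 3.17 CPM in sham, and did not pass the test (log2 fold change of 0.06, SE 0.17).

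Footprints in the DRG separated Slc5a7 from the other members. Of 4 tested, 3 were lower, against 8.28% of 13038 genes called lower, and 1 was higher, against 8.4% called higher in edgeR. Slc5a7 had 8.03 and 7.39 CPM of footprints after SNI, from 100 and 161 reads, against 5.81 and 5.15 CPM in sham, from 43 and 90 reads. It rose by a log2 fold change of 0.51 (SE 0.16, adjusted p of 0.0137 in edgeR). The call was lost with DESeq2 (adjusted p of 0.448), with the fixed coefficient, and without sham pool 2 (0.362), SNI pool 1 (0.0899) or SNI pool 2 (0.0510).

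Chodl footprints in the DRG were 3.93 and 4.41 CPM after SNI, against 6.62 and 5.90 CPM in sham (log2 fold change of -0.53, SE 0.17, adjusted p of 0.0201 in edgeR), and the call was lost with DESeq2, with the fixed coefficient and without any 1 of the 4 lysates (adjusted p of 0.0765 to 0.122). Ache footprints were 165 and 159 CPM after SNI, against 194 and 199 CPM in sham. They fell by 17.8% (log2 fold change of -0.28, SE 0.03, adjusted p of 1.69e-12 in edgeR), and that call was lost only with the fixed coefficient. Isl2 footprints were 264 and 251 CPM after SNI, against 301 and 275 CPM in sham, and fell by 10.5% (adjusted p of 0.00101 in edgeR), which was lost with DESeq2, with the fixed coefficient and without sham pool 1 (0.0894) or SNI pool 2 (0.147).

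For TE in the DRG, 1 of the 4 members was called lower and 0 higher in edgeR, against 3.21% of 12710 genes called lower. Ache had log2 TE values of 0.66 and 0.60 after SNI, against 0.75 and 0.78 in sham, a difference of -0.14 (SE 0.05, adjusted p of 0.0417 in edgeR) that was lost with DESeq2, with the fixed coefficient and without any 1 lysate. Slc5a7 had 1.30 and 1.11 after SNI, against 0.86 and 0.70 in sham, with no overlap, and a difference of 0.44 (SE 0.24, adjusted p of 0.318 in edgeR). Isl2 had 0.46 and 0.40 after SNI, against 0.61 and 0.42 in sham, and did not pass the test (difference of -0.08, adjusted p of 0.349 in edgeR), but without sham pool 2 its difference was -0.19 with an adjusted p of 0.0302. Chodl had 0.08 and 0.22 after SNI, against 0.17 and -0.10 in sham, and the groups overlapped (difference of 0.16, adjusted p of 0.786 in edgeR). Chat, Slc18a3 and Mnx1 had at most 2 footprint reads in any DRG library, and with no minimum of reads their TE was not called.

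Other tissue markers also moved in these DRG libraries. Of 8 general neuron genes of the cord, 7 fell and 0 rose in DRG mRNA, and the summed level of 6 oligodendrocyte genes was 6.21 to 6.89 CPM after SNI, against 30.4 to 32.6 CPM in sham. Of 16 skeletal muscle genes tested, 14 rose and 0 fell, with a summed level of 192 to 193 CPM after SNI, against 76.9 to 77.8 CPM in sham. All 12 axon injury genes rose. The part of these tissues in the DRG values of Chodl, Ache and Isl2 was not tested.

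An interaction term of surgery and tissue tested whether the response of a member was different in cord and DRG. In mRNA, 1 of 4 members tested responded lower in cord than in DRG, against 8.4% of 13557 genes called lower in edgeR. This was Slc5a7, with a log2 fold change of -0.70 in the cord, against 0.06 in the DRG, and a difference of -0.77 (SE 0.18, adjusted p of 0.00178 in edgeR). This call held with DESeq2 and without each lysate, and was lost with the fixed coefficient of variation (adjusted p of 0.506). The difference for Chodl was -0.39 (SE 0.17, adjusted p of 0.101 in edgeR), and -0.52 with an adjusted p of 0.0436 without cord SNI pool 1. That for Isl2 was -0.70 (SE 0.29, adjusted p of 0.0907 in edgeR), and -1.94 with an adjusted p of 0.000298 without cord SNI pool 2. Ache did not pass the test (0.08, adjusted p of 0.140). With no minimum of reads, Chat, Slc18a3 and Mnx1 were not called in this contrast (adjusted p of 0.936, 0.261 and 0.743 in edgeR).

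In footprints, 2 of 3 members tested responded lower in the cord, against 4.04% of 11510 genes, and 1 responded higher, against 4.65%. Slc5a7 was -0.76 in the cord and 0.51 in the DRG, a difference of -1.27 (SE 0.16, adjusted p of 1.96e-07 in edgeR), which held under DESeq2, the fixed coefficient and each left-out lysate. For Chodl the difference was -0.84 (SE 0.21, adjusted p of 0.00652 in edgeR), since it fell more in the cord than in the DRG, but the call was lost with DESeq2, with the fixed coefficient, and without cord SNI pool 2 (0.0605), DRG sham pool 2 (0.101) or DRG SNI pool 2 (0.131). Ache fell less in the cord than in the DRG (difference of 0.17, SE 0.04, adjusted p of 0.00535 in edgeR), and this was lost with DESeq2, with the fixed coefficient, with no minimum of reads, and without cord sham pool 1 (0.134), DRG sham pool 2 (0.0796) or DRG SNI pool 2 (0.0814). With no minimum of reads, Isl2 was at -0.53 (SE 0.25, adjusted p of 0.690 in edgeR) and was not called, nor were Chat, Slc18a3 and Mnx1.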

How the data were processed

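The authors made the deposited read counts per gene from ribosome footprints and poly(A) mRNA fragments. Per their processing notes, Bowtie 1.1.2 served to discard rRNA and tRNA reads, STAR 2.5.2b to align the rest to GRCm38.p5 and HTSeq to count, its version not given in the sources used here. Their RPKM and TE columns were not used here. The deposited exonic length per gene served for levels per kb, and positions are from GENCODE M21 on GRCm38.

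Differences in counts were judged by quasi-likelihood fits in edgeR 4.0.16 (R 4.3.3). TMM factors were computed per assay over the libraries of a fit, which for the contrasts between tissues held both tissues. For the CPM values printed they were computed separately per tissue and assay. Library sizes were column sums, and p-values were adjusted by Benjamini-Hochberg over every gene in a fit. Genes entered a fit with an average of at least 32 reads over its 4 libraries, for TE in both assays, for interactions in both tissues and for the tissue contrast over the sham mRNA libraries. Calls were adjusted p under 0.05. A surgery by assay term, in a model with a term per lysate, tested TE. Log2 TE per lysate and the likeness of genes used 0.5 added reads. Alternatives were DESeq2 1.42.0, library sizes alone, no minimum, a fixed coefficient of variation of 0.1, a replicate block, both tissues in 1 fit, no lysate terms and leaving out each lysate. The mean chi-square per gene between replicates, 1 for sampling noise, ran from 1.06 to 3.30. For DRG mRNA it was 1.06 in sham and 1.07 in SNI. Values this near 1 cannot tell separate pools from repeats of 1 library. Every pair was treated as separate pools because the paper describes the replicates as independent, and the DRG mRNA p-values rest on this. The fits were first tested on simulated data.

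The members and gene lists were chosen with earlier results of these data known. The rule named all 7 members in every comparison, with one under the minimum read from the fit with no minimum, where fold changes resting on a few DRG reads are left out. Of each other list, up to 4 genes with the largest change among those called in cord mRNA, or else the one with the most reads, could be named, as could the 5 genes nearest to Chat and to Chodl by pattern. Calca, Prph, Vipr2, Lhx4, Aldh1a2, Esrrg, Mmp9, Lhx3, Evx1, Gata3, Sox14 and Sim1, as members of their lists, were named after their values were seen. Some genes that this rule takes are not reported here. Python 3.11.15 with pandas 2.3.3 and numpy 2.4.6 made the tables.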

Additional observations from a re-analysis of the deposited data

Results flagged for a closer look

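The response of 3 members differed between the tissues by the interaction test of edgeR. Slc5a7 mRNA had a log2 fold change after SNI of -0.70 in the cord, against 0.06 in the DRG, a difference of -0.77 that was no longer called with the fixed coefficient of variation of 0.1, and Slc5a7 footprints had -0.76 in the cord, against 0.51 in the DRG, a difference of -1.27. Chodl footprints had -1.38 in the cord, against -0.53 in the DRG, a difference of -0.84. Ache footprints had -0.12 in the cord, against -0.28 in the DRG, a difference of 0.17. The Chodl and Ache differences were no longer called with DESeq2 or with the fixed coefficient, and that of Ache was also lost with no minimum of reads. In the DRG, Slc5a7 rests on 43 to 161 footprint reads per library.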

How the results depend on the processing

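With a fixed coefficient of variation of 0.1, members called lower were 2 in cord mRNA (4 in the report), 3 in cord footprints (5), 1 in DRG mRNA (3), 0 in DRG footprints (3, with 0 higher in place of 1), 0 in DRG TE (1), 0 for the mRNA response between tissues (1) and 1 for the footprint response (2, with 0 higher in place of 1). With DESeq2 they were 3 in cord footprints, 1 lower and 0 higher in DRG footprints, 0 in DRG TE, and 1 lower and 0 higher for the footprint response, which with no minimum also had 0 higher. Without each lysate in turn, members called lower ran from 3 to 4 in cord mRNA, 3 to 5 in cord footprints, 2 to 3 in DRG mRNA, 1 to 2 in DRG footprints (0 to 1 higher), 0 to 1 in DRG TE, 1 to 2 for the mRNA response and 1 to 2 for the footprint response (0 to 1 higher). Signs turned for 3 TE values near 0 without 1 lysate, and their ranges were -0.17 to 0.042 for Slc5a7 in the cord (0.042 without sham pool 2), -0.19 to 0.0053 for Isl2 in the DRG (0.0053 without sham pool 1) and -0.0069 to 0.26 for Chodl in the DRG (-0.0069 without sham pool 2). The cause was not tested.

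Over all genes, the 597 calls in cord mRNA became 57 with DESeq2, 10 with the fixed coefficient and 138 to 1030 without each lysate. The 269 in cord footprints became 91 with DESeq2, 66 with the fixed coefficient, 408 with no minimum and 175 to 260 without each lysate, and the 30 in cord TE became 13 with DESeq2 and 8 with the fixed coefficient. With DESeq2 and then with the fixed coefficient, the 4775 calls in DRG mRNA became 2104 and 267, the 2175 in DRG footprints 725 and 194, the 944 in DRG TE 86 and 18, the 2347 in the mRNA response 932 and 60, and the 1000 in the footprint response 336 and 69. Without each lysate they ran from 1188 to 1859 in DRG footprints, 341 to 587 in DRG TE and 655 to 843 in the footprint response. DRG mRNA calls numbered 2308 higher and 2467 lower, and 3072 and 1781 with library sizes alone. Same-numbered replicates share only a number (correlation of their deviations from -0.033 to 0.19), and a replicate block gave 1005 calls in cord mRNA, 400 in cord footprints and 49 in cord TE, with no call on a member changed. Depth limits Mnx1 and Isl2 in the cord and Chat, Slc18a3 and Mnx1 in the DRG. Of these, Isl2 in cord mRNA alone reached the minimum, and with no minimum Mnx1 was called lower in cord mRNA.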
